A study of Solanum lycopersicum with 6 samples.

Results

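The nitrate assimilation route of tomato roots was followed through 3 genes, a high-affinity nitrate transporter (Solyc06g074990.2), a nitrate reductase (Solyc11g013810.2) and a glutamine synthetase (Solyc11g011380.2). They were taken by identifier from the 35768 genes of the deposited table. They had been chosen with their lower levels in slszp1 mutant roots already known, so their differences between genotypes are given as a description, with no test. The table names them as putative high affinity nitrate transporter 2, nitrate reductase and glutamine synthetase, and these names rest on the authors' annotation alone.

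Roots take up nitrate from dilute solution through NRT2 transporters, which in Arabidopsis work with a partner protein, NAR2. Nitrate reductase, a molybdenum enzyme of the cytosol, turns nitrate into nitrite, and nitrite reductase turns nitrite into ammonium in plastids. Glutamine synthetase then joins ammonium to glutamate, and glutamate synthase passes the amide nitrogen on, so that the products feed the synthesis of other amino acids.

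Total RNA was sequenced from roots of slszp1 mutant plants (3 libraries) and of wild type (WT) plants (3 libraries). Plants of both genotypes were 20 days old and had been exposed to 60 µM aluminium at pH 4.7, and the labels call the libraries biological replicates. SZP1 is known as a zinc finger protein that interacts with STOP1, a factor of aluminium and low-pH tolerance. The type of slszp1 allele, the number of independent mutant lines and the nitrogen supply of the solution are not given in the sources used here. SZP1 could not be found among the gene descriptions, and the genotype labels are therefore unchecked against the mutated gene. Roots without aluminium were not analysed here, and each difference is between genotypes under aluminium.

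The deposited values are taken as TPM (an abundance of transcripts scaled to a common total and corrected for transcript length), so levels can be set side by side between genes on that scale. Sequencing depth is unknown. Each library held 17050 to 17728 genes at 1 TPM or more, and Pearson's r of log2(TPM + 1) between libraries was 0.971 to 0.98 within slszp1, 0.952 to 0.974 within WT and 0.877 to 0.916 between genotypes. Of 17702 genes with enough signal to test, the limma fit called 1542 higher in slszp1 (8.71%) and 1865 lower (10.5%), 3407 in all (19.2%). Without WT replicate 1 it called 994 higher and 1131 lower, without slszp1 replicate 2 it called 1240 lower and without slszp1 replicate 3 it called 995 higher. The median difference over all tested genes was -0.0005 on the log2 scale. As a check of the labelled tissue only, genes described with casparian strip, extensin, nicotianamine synthase or root hair were taken as root markers. They summed to 2840 to 3440 TPM in slszp1 and 5280 to 5660 TPM in WT. Of the 76 listed, 14 were at 0 in every library, and of 26 tested 0 rose and 8 fell. Whether each of these genes is particular to roots was not tested. Markers of leaf and photosynthetic tissue were descriptions of ribulose bisphosphate carboxylase small chain, chlorophyll a/b binding and photosystem II proteins. They summed to 417 to 481 TPM in slszp1 and 360 to 380 TPM in WT. Of the 130 listed, 58 were at 0 in every library, and of 26 tested 1 rose and 2 fell. The part of either marker list in the results on nitrate assimilation was not tested. In such bulk samples, fewer cells of a type and less RNA per cell cannot be told apart.

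The nitrate transporter Solyc06g074990.2 had 1.69, 0.66 and 1.54 TPM in slszp1 replicates 1, 2 and 3, against 23.23, 29.83 and 30.56 TPM in WT replicates 1, 2 and 3. Every WT root library lay far above every slszp1 library, and slszp1 replicate 2 was under the level of 1 TPM. For this gene and the others described, such a gap follows in part from how they were chosen. The share of all tested genes without overlap between genotypes was not counted. The means were 1.3 ± 0.556 TPM in slszp1 and 27.9 ± 4.04 TPM in WT (SD, n = 3 each), a mean 21.5-fold higher in WT. On the log2(TPM + 1) scale, which understates the change of low genes, the difference was -3.67 (SE 0.23). By level, this gene ranked 15815, 17913 and 16515 among all listed genes in the slszp1 libraries and 6129, 5055 and 5214 in the WT libraries. A transporter of middling abundance in WT roots was thus close to the limit of what was tested in the mutant.

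Nitrate reductase Solyc11g013810.2, the cytosolic enzyme that follows uptake, had 19.91, 42.48 and 34.15 TPM in slszp1 replicates 1, 2 and 3, against 447.39, 454.65 and 489.15 TPM in the WT replicates. The genotypes were widely apart, and the WT libraries were nearly alike while slszp1 replicate 1 was well below the other mutant libraries. The means were 32.2 ± 11.4 TPM in slszp1 and 464 ± 22.3 TPM in WT (SD, n = 3 each). The WT mean was 14.4-fold higher, and the log2 difference was -3.87 (SE 0.25). In WT roots this transcript was among the most abundant of all, at ranks 305, 306 and 256. In slszp1 roots it ranked 6686, 3814 and 4890.

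Glutamine synthetase Solyc11g011380.2, which fixes ammonium into glutamine, had 132.61, 92.08 and 118.28 TPM in slszp1 replicates 1, 2 and 3, against 584.91, 487.93 and 579.26 TPM in the WT replicates. Again no library of one genotype reached the levels of the other, and replicate 2 was the lowest of each genotype. The means were 114 ± 20.6 TPM in slszp1 and 551 ± 54.4 TPM in WT (SD, n = 3 each), 4.82-fold higher in WT, with a log2 difference of -2.27 (SE 0.18). Unlike the transporter, it was still an abundant transcript in the mutant, at ranks 1333, 1954 and 1504, against ranks 205, 282 and 203 in WT.

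**Figure D1:**
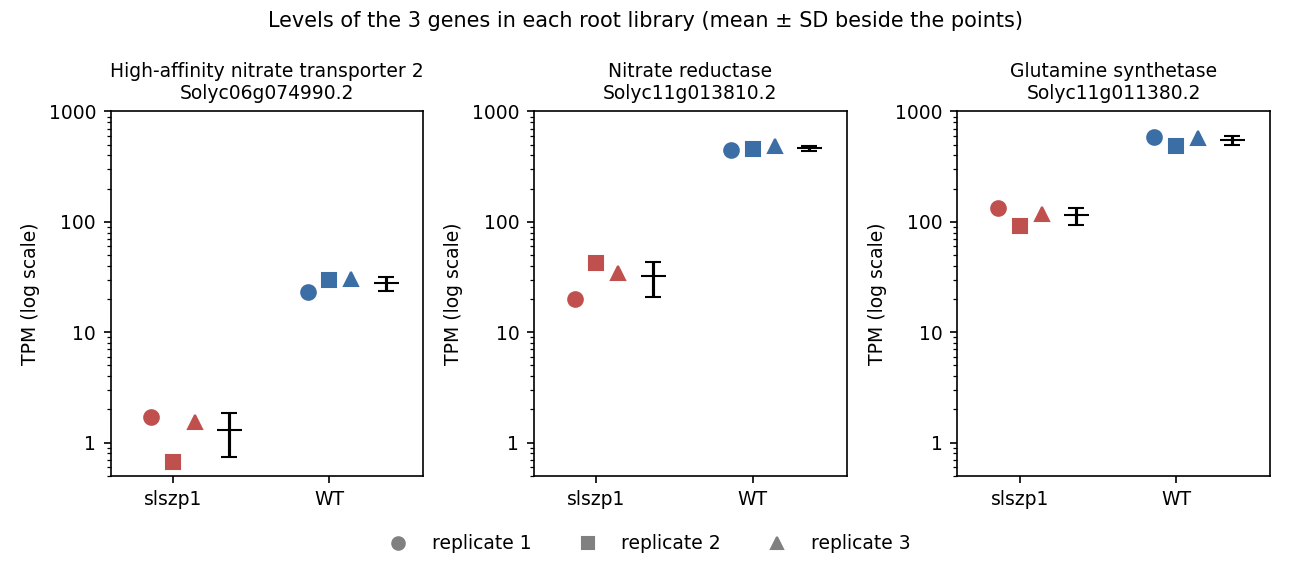
Level in TPM (log scale) of the nitrate transporter, nitrate reductase and glutamine synthetase in each of the 3 slszp1 and 3 WT root libraries, with the mean ± SD beside the points. No slszp1 library overlaps a WT library in any of the 3 genes, which follows in part from how they were chosen. The share of all tested genes without overlap was not counted. In slszp1, replicate 2 (square) is the highest mutant library for nitrate reductase but the lowest for the other genes.

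The plot of levels by library also shows how the genes varied within a genotype. In order of level, glutamine synthetase and nitrate reductase stood above the transporter in every library. In slszp1, the mean of glutamine synthetase (114 TPM) lay above that of nitrate reductase (32.2 TPM) by more than the spread, and all 3 libraries kept that order. In WT, glutamine synthetase (551 TPM) was also above nitrate reductase (464 TPM) in all 3 libraries, but in replicate 2 they came close, at 487.93 and 454.65 TPM.

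Relative spread was larger in the mutant for each gene. The coefficient of variation, the SD as a percent of the mean, was 42.9% in slszp1 and 14.5% in WT for the transporter. It was 35.5% in slszp1 and 4.81% in WT for nitrate reductase, and 18.0% in slszp1 and 9.88% in WT for glutamine synthetase. The transporter was also the lowest of the 3 genes in slszp1, and the part of counting error in its spread was not tested, since depth is unknown. Its highest and lowest mutant libraries differed 2.56-fold, compared with 2.13-fold for nitrate reductase and 1.44-fold for glutamine synthetase. The mutant libraries did not vary together across the genes: replicate 2 had the highest nitrate reductase and the lowest transporter and glutamine synthetase. The ratio of nitrate reductase to transporter TPM was accordingly 11.8, 64.4 and 22.2 in slszp1 replicates 1, 2 and 3, with the WT replicates at 19.3, 15.2 and 16.0 inside that range. The ratio of nitrate reductase to glutamine synthetase TPM was 0.15, 0.461 and 0.289 in slszp1, below the 0.765, 0.932 and 0.844 of WT in every library.

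Among all 17702 tested genes, 42 had a lower log2 difference than nitrate reductase, 52 had a lower one than the transporter and 225 had a lower one than glutamine synthetase. These ranks come from the contrast on which the genes were chosen and describe their size only. With each library left out in turn, the log2 difference lay between -4.1 and -3.57 for nitrate reductase, between -3.8 and -3.46 for the transporter and between -2.38 and -2.12 for glutamine synthetase.

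Other transcripts carry the names of the same steps. For uptake, 7 genes were described as high-affinity nitrate transporters without the suffix -like, and Solyc06g074990.2 held 28.6%, 54.5% and 50.0% of their summed TPM in the slszp1 replicates, against 97.0%, 65.7% and 96.1% in the WT replicates. The share was lower in each mutant library than in any WT library, and WT replicate 2 stood apart from the other WT libraries. There, another high-affinity transporter, Solyc06g010250.3, was at 13.0 TPM, while WT replicates 1 and 3 held 0.51 and 1.09 TPM and slszp1 replicates 3.5, 0.39 and 1.22 TPM. The summed TPM of all 7 genes was 5.91, 1.21 and 3.08 in slszp1 and 23.9, 45.4 and 31.8 in WT. With the 2 entries named transporter-like added, one of them far more abundant, Solyc06g074990.2 held 0.733%, 0.369% and 0.71% of the sum in slszp1 and 13.7%, 12.1% and 18.3% in WT. The sums of these 9 genes were 209 ± 26.9 TPM in slszp1 and 194 ± 44.9 TPM in WT (SD, n = 3 each). The entry with the next identifier, Solyc06g074995.1, was listed at 0 in all libraries.

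The counts of called genes in this and the following lists stand beside 8.71% higher and 10.5% lower over all tested genes. Of 3 further NRT2 and NAR2 genes tested, 0 rose and 1 fell. Solyc03g112090.3, described as high-affinity nitrate transporter-like and matched only in part, was at 1.42 ± 0.153 TPM in slszp1 and 3.09 ± 0.546 TPM in WT, a log2 difference of -0.75 (SE 0.20; limma, Benjamini-Hochberg adjusted p = 0.034). This call was lost without slszp1 replicate 1, 2 or 3 (adjusted p = 0.0865, 0.0842 and 0.0802) and without WT replicate 1 or 3 (adjusted p = 0.133 and 0.0625) in the same limma fit. Its neighbour Solyc03g112100.3, of the same description and far more abundant at 204 ± 24.7 TPM in slszp1 and 157 ± 35.2 TPM in WT, was not called (limma, adjusted p = 0.203), although it passed as higher without WT replicate 2 (limma, adjusted p = 0.0423). Reads of these consecutive genes could have been divided between them in the authors' quantification.

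For reduction, the 2 further genes tested under the name of nitrate reductase were both uncalled, with 0 at an unadjusted p under 0.05. Solyc03g115060.3 had 10.32, 8.98 and 7.81 TPM in slszp1 and 17.48, 8.78 and 16.33 TPM in WT, a log2 difference of -0.55 (SE 0.26; limma, adjusted p = 0.181). Its WT replicate 2 value lay among the mutant values, and without that library the difference was -0.84 (limma, adjusted p = 0.0169). Solyc01g073730.3, described as a cofactor of nitrate reductase and xanthine dehydrogenase, differed by 0.10 (SE 0.15; limma, adjusted p = 0.706).

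Of 2 tested genes for nitrite reductase, the next enzyme of the route, 1 rose and 0 fell. Solyc10g050890.2 (nitrite reductase 2) had 67.7, 72.34 and 85.69 TPM in slszp1 and 35.98, 36.32 and 42.58 TPM in WT, with every mutant library above every WT library. It rose 1.96-fold in the mean, a log2 difference of 0.95 (SE 0.15; limma, adjusted p = 0.00332), and kept its call whichever library was left out. The ratio of nitrate reductase to nitrite reductase 2 TPM was 0.294, 0.587 and 0.399 in slszp1, against 12.4, 12.5 and 11.5 in WT. Reductase transcripts for nitrate thus outnumbered those of nitrite reductase 2 in WT roots and were fewer than them in each mutant library. A further nitrite reductase model, more abundant than nitrite reductase 2 in every library but WT replicate 1, is left out of this ratio. With it added to the denominator the ratio would be lower in each library, and that ratio was not computed. The model, Solyc11g063500.1, is marked low quality in the table. It had 303.52, 189.41 and 599.01 TPM in slszp1 and 17.77, 191.27 and 145.6 TPM in WT, so the genotypes overlapped and it was not called (log2 difference 2.01, SE 0.96; limma, adjusted p = 0.211). Another form, nii1 (Solyc01g108630.3), was too low to be tested and was lower in every mutant library, with 0.23, 0.16 and 0.5 TPM in slszp1 and 0.76, 1.5 and 0.78 TPM in WT.

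For glutamine synthesis, 7 genes were described as glutamine synthetases, and Solyc11g011380.2 held 82.6%, 75.5% and 74.9% of their summed TPM in slszp1, against 96.5%, 93.7% and 96.6% in WT. It was the leading form in every library of both genotypes. The summed TPM of the 7 genes was 147 ± 21.6 in slszp1 and 575 ± 47.4 in WT (SD, n = 3 each), whereas without Solyc11g011380.2 the sums were 32.5 ± 6.32 in slszp1 and 24.8 ± 7.05 in WT. These sums overlapped between genotypes. Of 4 further genes tested in this list 0 were called, and 0 had an unadjusted p under 0.05 by limma. The plastid-type form Solyc01g080280.3 was at 5.6 ± 1.09 TPM in slszp1 and 5.37 ± 0.525 TPM in WT (log2 difference 0.04, SE 0.20; limma, adjusted p = 0.91). Solyc11g011390.2, next to Solyc11g011380.2 by identifier and matched in part, was at 10.5 ± 2.35 TPM in slszp1 and 8.61 ± 1.58 TPM in WT, and reads could have been divided between this pair. Solyc04g014510.3 had 13.01, 15.93 and 19.96 TPM in slszp1 and 7.19, 19.66 and 4.95 TPM in WT; it was not called (limma, adjusted p = 0.286), but it passed as higher without WT replicate 2 (log2 difference 1.29; limma, adjusted p = 0.00845).

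**Figure D2:**
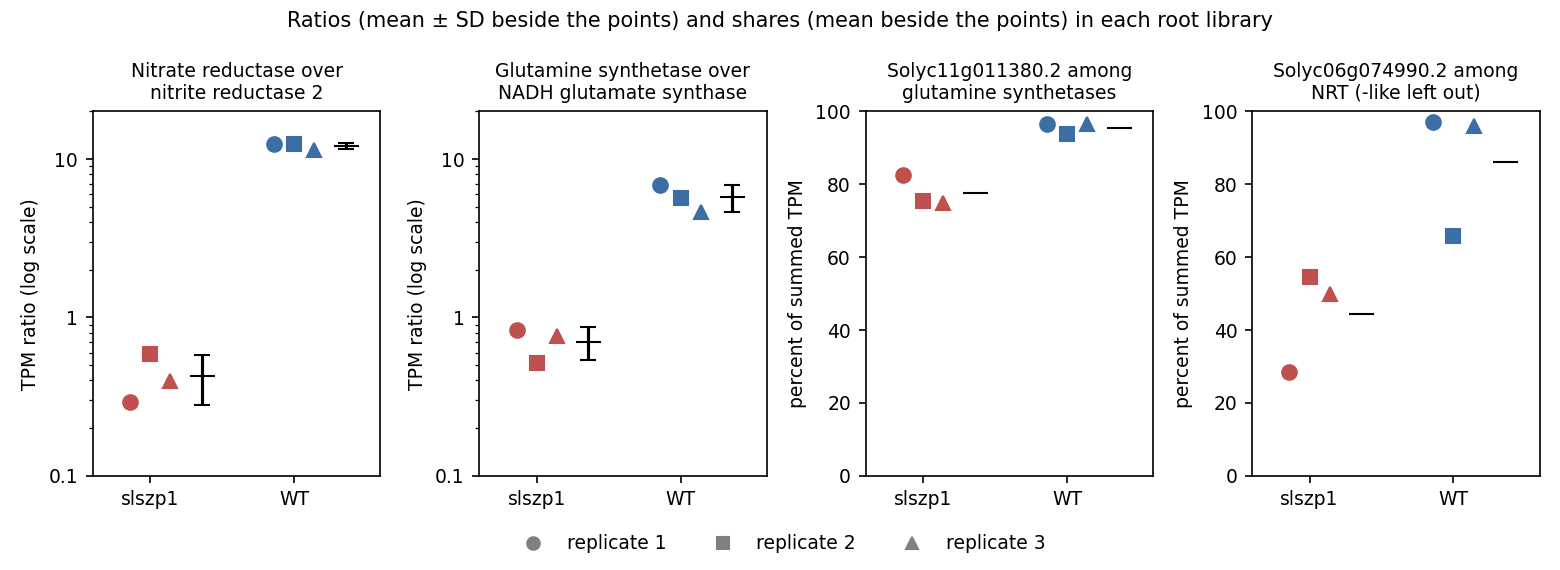
From left, the TPM ratio of nitrate reductase to nitrite reductase 2 and of glutamine synthetase to NADH glutamate synthase (log axes, mean ± SD), then the percent of summed TPM held by Solyc11g011380.2 among 7 glutamine synthetase genes and by Solyc06g074990.2 among 7 high-affinity nitrate transporter genes, the entries named transporter-like left out (NRT; mean beside the points), for 3 slszp1 and 3 WT libraries. Both ratios are below 1 in each slszp1 library and above 4 in each WT library. The reductase ratio leaves out the low-quality nitrite reductase model Solyc11g063500.1. That model is more abundant than nitrite reductase 2 in every library but WT replicate 1, and would lower the ratio. WT replicate 2 (square) has the lowest transporter share of the WT libraries.

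The ratio and share plots set the 3 genes against their partners, and no test is given because each contains a gene chosen on this contrast. Glutamate synthase, which completes the ammonium cycle with glutamine synthetase, contributes the second ratio. Its NADH form Solyc01g102280.3, whose description rests on a weak match, had 159.91, 178.01 and 154.59 TPM in slszp1 and 84.67, 85.81 and 124.8 TPM in WT. It rose in the mutant by 0.75 on the log2 scale (SE 0.18; limma, adjusted p = 0.0224). The call was lost without slszp1 replicate 1, 2 or 3 (limma, adjusted p = 0.0637, 0.0807 and 0.0535) and without WT replicate 1 (limma, adjusted p = 0.0816). The ratio of glutamine synthetase Solyc11g011380.2 to this gene was 0.829, 0.517 and 0.765 in slszp1, against 6.91, 5.69 and 4.64 in WT. Of 9 genes tested under the name glutamate synthase, 1 rose and 0 fell; 5 of these are enzymes of other pathways whose names contain those words, and of the other 4 again 1 rose. The clearly matched Solyc03g083440.3 was at 69.4 ± 6.24 TPM in slszp1 and 60.3 ± 7.51 TPM in WT and was not called (limma, adjusted p = 0.398).

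Glutamate dehydrogenase, ammonium transport and aspartate aminotransferase are steps around the route, each with few tested genes, beside 8.71% higher and 10.5% lower over all tested genes. Of 5 glutamate dehydrogenase genes, enzymes that release or fix ammonium on glutamate, 0 rose and 2 fell. The abundant Solyc10g078550.3 was at 967 ± 202 TPM in slszp1 and 2290 ± 366 TPM in WT (log2 difference -1.25, SE 0.21; limma, adjusted p = 0.0049). Solyc06g005450.1 had 4.61, 5.01 and 4.71 TPM in slszp1 and 25.29, 7.87 and 26.69 TPM in WT, where replicate 2 was low (limma, adjusted p = 0.0287). That call was lost on leaving out each slszp1 replicate (limma, adjusted p = 0.0882 to 0.103) and without WT replicate 1 or 3 (limma, adjusted p = 0.0851 and 0.0772).

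Of 3 ammonium transporter genes, 0 rose and 1 fell. Solyc10g076480.2 was at 23.2 ± 4.12 TPM in slszp1 and 41.8 ± 5.67 TPM in WT (log2 difference -0.83, SE 0.18; limma, adjusted p = 0.0139), and it was lost without slszp1 replicate 2 (limma, adjusted p = 0.0535) or WT replicate 1 (limma, adjusted p = 0.0522). Of 7 aspartate aminotransferases, which pass the amino group of glutamate to oxaloacetate, 0 rose and 2 fell. Solyc04g054710.3 was at 139 ± 25.4 TPM in slszp1 and 330 ± 45.5 TPM in WT, a log2 difference of -1.24 (SE 0.18; limma, adjusted p = 0.00241). Solyc03g120450.3 was at 132 ± 12 TPM in slszp1 and 190 ± 19.1 TPM in WT (limma, adjusted p = 0.0429), a call lost on leaving out each library except WT replicate 2 (limma, adjusted p = 0.0894 to 0.14), and also with no filter on low values (limma, adjusted p = 0.0579) or with each library centred on its median (limma, adjusted p = 0.0744).

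Asparagine, a storage and transport form of nitrogen, was represented by 10 tested genes, of which 1 rose and 2 fell, each keeping its call whichever library was left out. L-asparaginase Solyc04g078460.3, which frees the ammonium of asparagine, had 423.5, 487.75 and 475.59 TPM in slszp1 and 1412.13, 1665.68 and 1343.76 TPM in WT. It fell by 1.67 on the log2 scale (SE 0.17; limma, adjusted p = 0.00038). The asparagine synthetase models split: the low-quality model Solyc02g071950.1 was at 341 ± 28.6 TPM in slszp1 and 147 ± 28.9 TPM in WT (log2 difference 1.22, SE 0.18; limma, adjusted p = 0.00247). The putative form Solyc04g055200.3 was at 8.66 ± 0.708 TPM in slszp1 and 20.1 ± 3.77 TPM in WT (log2 difference -1.11, SE 0.18; limma, adjusted p = 0.00411). Solyc06g007180.3, described as asparagine synthetase 1, was at 210.0 ± 7.08 TPM in slszp1 and 172 ± 28.3 TPM in WT and was not called (limma, adjusted p = 0.239).

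**Figure D3:**
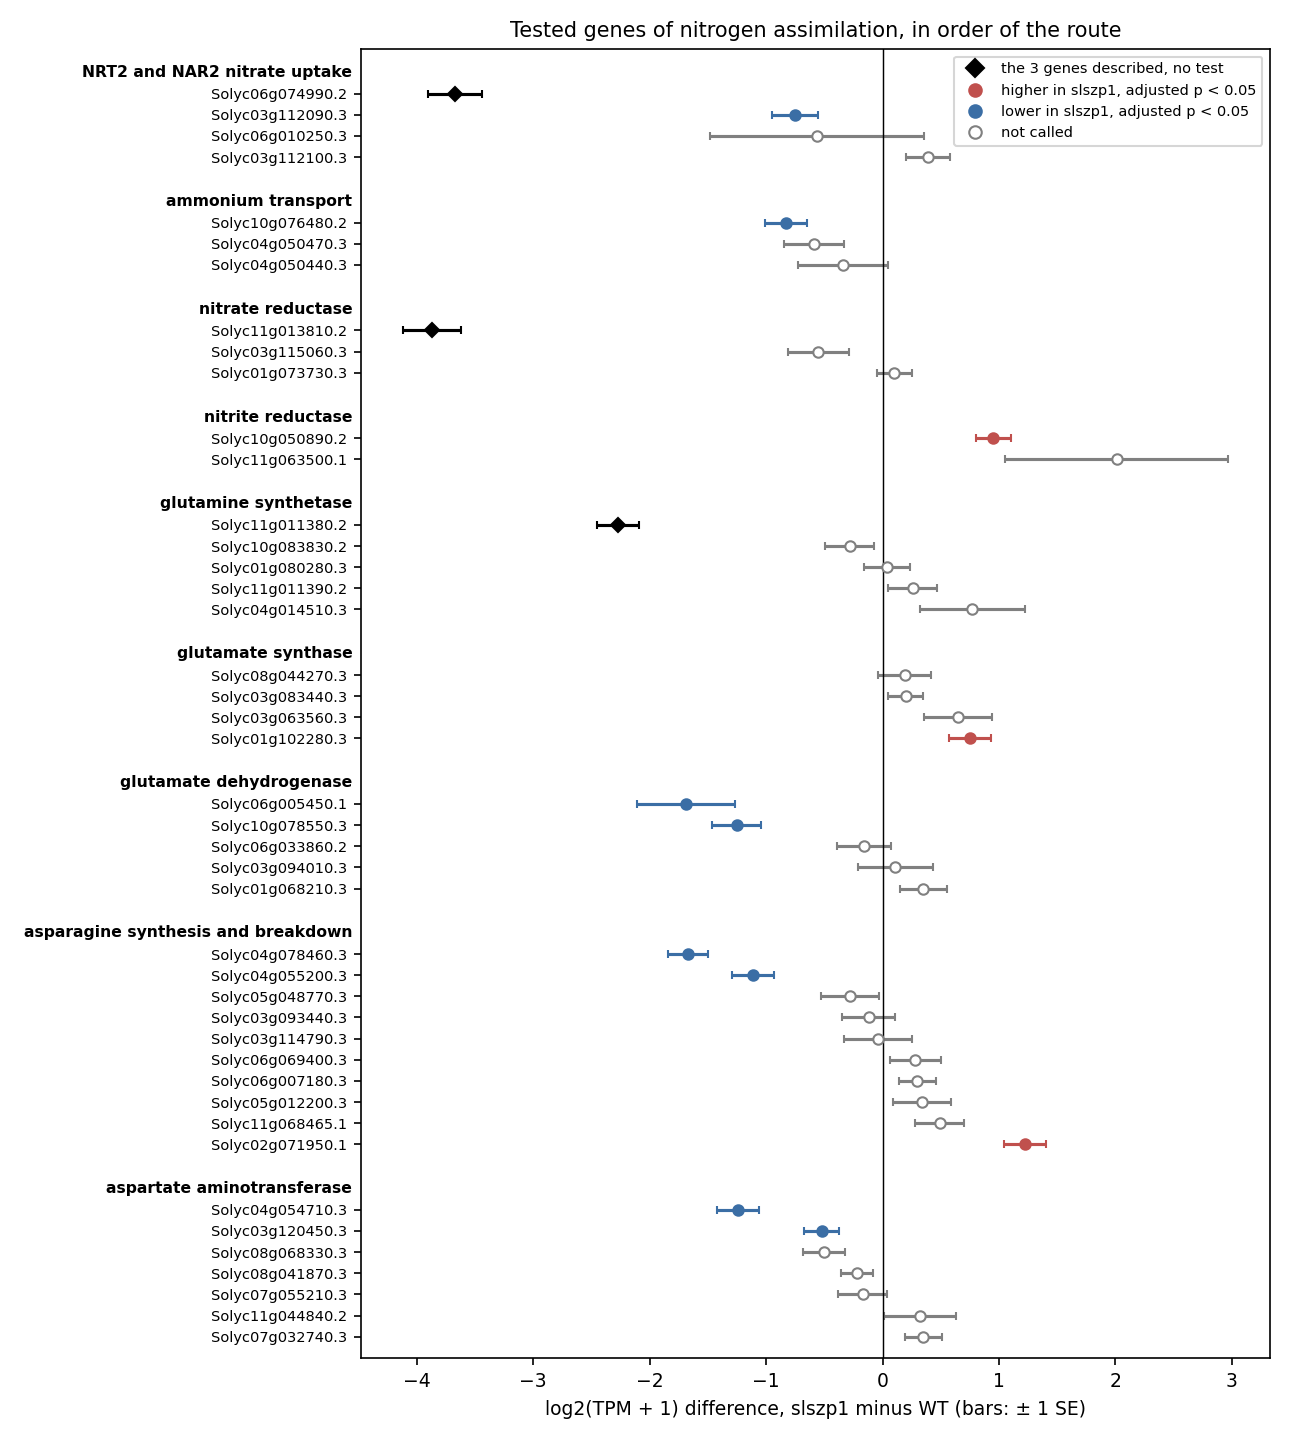
Log2(TPM + 1) difference, slszp1 minus WT, with its SE for the tested genes of uptake, reduction and assimilation, grouped in the order of the route; names that matched by their letters alone are left out. The 3 genes described (diamonds, no test) lie at -3.67, -3.87 and -2.27, lower than every other gene plotted, while nitrite reductase 2 lies at 0.95.

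In the plot of the route, the 3 genes stood lower than every other tested transcript drawn, which follows in part from how they were chosen. The low-affinity NRT1/PTR family, whose pattern also took oligopeptide transporters, had 19 tested genes, of which 3 rose and 3 fell. This is 15.8% in each direction, beside 8.71% higher and 10.5% lower over all tested genes. The largest differences among the called genes of this family belonged to low transcripts. Solyc08g007060.3, Solyc01g080870.3 and Solyc02g081570.3 reached 1 TPM in 1 genotype only, and so passed the filter through the genotype where they were high. That favours a difference, so their p-values are a description only. Solyc08g007060.3 was at 10 ± 6.71 TPM in slszp1 and 0.24 ± 0.0656 TPM in WT (log2 difference 2.97, SE 0.42; limma, adjusted p = 0.00229). Solyc11g012700.2 was at 19.4 ± 0.711 TPM in slszp1 and 3 ± 0.352 TPM in WT, a log2 difference of 2.35 (SE 0.17). Solyc01g080870.3 was at 0.723 ± 0.167 TPM in slszp1 and 6.92 ± 2.56 TPM in WT, a log2 difference of -2.16 (SE 0.26; limma, adjusted p = 0.000915). Solyc06g076750.3 and Solyc02g081570.3 also fell, by 1.21 and 1.6 on the log2 scale. Solyc05g006990.3, described as nitrate transporter 1:2, was at 29.2 ± 4.84 TPM in slszp1 and 18.2 ± 1.91 TPM in WT (log2 difference 0.64; limma, adjusted p = 0.0302). It was lost without slszp1 replicate 1 or 3 (limma, adjusted p = 0.0905 and 0.0846) and without WT replicate 1 or 2 (limma, adjusted p = 0.0951 and 0.0575).

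Channels that carry nitrate and other anions gave 1 gene that rose and 3 that fell of 12. These are 8.33% and 25.0%, beside 8.71% and 10.5% over all tested genes. Each call held whichever library was left out. The chloride channel Solyc02g068080.3 was at 55.6 ± 10.9 TPM in slszp1 and 20.4 ± 3.98 TPM in WT (log2 difference 1.41, SE 0.19; limma, adjusted p = 0.00177). The S-type anion channel Solyc06g036440.2 was at 17.2 ± 4.29 TPM in slszp1 and 62.8 ± 30.2 TPM in WT (log2 difference -1.73, SE 0.35; limma, adjusted p = 0.0131). The other 2 that fell, Solyc07g051950.3 and Solyc04g080990.2, are described as SLAH1 homologues. Solyc04g080990.2 reached 1 TPM in WT only, and so passed the filter through the genotype where it was high.

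Nitrate reductase and nitrite reductase carry prosthetic groups, molybdenum cofactor and sirohaem. Of 11 tested genes whose descriptions name these cofactors or their synthesis, 3 rose (27.3%) and 1 fell (9.09%), beside 8.71% and 10.5% over all tested genes. All 3 that rose are described as molybdenum cofactor sulfurase or a member of its family, not as genes of molybdopterin synthesis. The low-quality model Solyc03g031420.1 was at 20.4 ± 1.39 TPM in slszp1 and 6.28 ± 0.46 TPM in WT (log2 difference 1.55, SE 0.16; limma, adjusted p = 0.000395). The entry that fell, Solyc04g081690.2, a part-matched molybdopterin synthase, was listed at 0 in all slszp1 libraries and had 3.23, 1.33 and 4.51 TPM in WT (limma, adjusted p = 0.00414). The other 2 rises, Solyc02g081880.3 and Solyc02g090190.1, were lost in at least 4 of the 6 fits without a library. Other molybdopterin genes were not called. Their log2 differences were 0.11 for Solyc01g009050.3 (CNX1) and -0.12 for Solyc05g050570.3 (CNX3-like). For the molybdopterin synthase subunits Solyc06g073620.3 and Solyc02g090010.2 they were 0.20 and -0.08.

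Proteins of the 14-3-3 family bind phosphorylated nitrate reductase and inactivate it. Of 7 tested genes, 1 rose (14.3%) and 3 fell (42.9%), beside 8.71% and 10.5% over all tested genes. Solyc04g012120.3 was at 220.0 ± 18.5 TPM in slszp1 and 374 ± 14.3 TPM in WT (log2 difference -0.77, SE 0.14; limma, adjusted p = 0.00748), and it alone kept its call whichever library was left out. Solyc04g074230.3, which rose, was at 394 ± 39.3 TPM in slszp1 and 264 ± 26.9 TPM in WT (limma, adjusted p = 0.0373), and it was lost whichever library was left out (limma, adjusted p = 0.0624 to 0.127).

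In roots the reductant for nitrite reductase and for ferredoxin-dependent glutamate synthase comes largely from the oxidative pentose phosphate pathway through ferredoxin. The NADH form of glutamate synthase described above is not of that kind. Of 31 tested genes 3 rose (9.68%) and 6 fell (19.4%), beside 8.71% and 10.5% over all tested genes. The median log2 difference was -0.23, and without 2 genes that matched by their letters 3 rose and 5 fell. Forms of glucose-6-phosphate dehydrogenase, the first enzyme, moved in both directions. Solyc07g045540.3 was at 5.95 ± 3.0 TPM in slszp1 and 0.487 ± 0.196 TPM in WT (log2 difference 2.15, SE 0.32; limma, adjusted p = 0.00241), whereas the more abundant Solyc02g093830.3 was at 79.0 ± 3.4 TPM in slszp1 and 169 ± 34.3 TPM in WT (log2 difference -1.07, SE 0.18; limma, adjusted p = 0.00423). The ferredoxin Solyc11g006910.2 was at 41.9 ± 13.0 TPM in slszp1 and 104 ± 30.6 TPM in WT (limma, adjusted p = 0.0121), a call lost without slszp1 replicate 3 (limma, adjusted p = 0.0533). The low-quality ferredoxin reductase model Solyc12g062200.1 was listed at 0 in all slszp1 libraries and had 35.59, 13.31 and 38.77 TPM in WT.

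Regulators of the nitrate response include RWP-RK proteins, the family of the NIN-like factors that act on nitrate, and BTB/TAZ proteins, which in Arabidopsis lower the expression of NRT2 genes. Of 15 tested regulators left after 14 entries matched by their letters alone, 3 rose and 6 fell. With those entries 4 of 29 rose (13.8%) and 9 fell (31.0%), beside 8.71% and 10.5% over all tested genes. Of the called RWP-RK genes, 1 rose and 3 fell. Solyc05g009650.3, which rose, was at 149 ± 39.1 TPM in slszp1 and 58.5 ± 18.5 TPM in WT (log2 difference 1.35, SE 0.26; limma, adjusted p = 0.0083). Solyc04g082480.3 was at 5.66 ± 1.33 TPM in slszp1 and 16.2 ± 0.909 TPM in WT (log2 difference -1.39, SE 0.19; limma, adjusted p = 0.00189). Solyc01g112190.3 was at 1.39 ± 0.445 TPM in slszp1 and 6.7 ± 2.72 TPM in WT (log2 difference -1.64, SE 0.30; limma, adjusted p = 0.00641). Solyc08g082750.3 fell by 0.77 on the log2 scale (limma, adjusted p = 0.0124), a call lost without slszp1 replicate 1 or 2 (limma, adjusted p = 0.0516 each). Of the called BTB/TAZ genes, 2 rose and 2 fell. The most abundant, Solyc02g092460.3, was at 317 ± 27.9 TPM in slszp1 and 141 ± 18.6 TPM in WT (log2 difference 1.17, SE 0.16; limma, adjusted p = 0.00171). Solyc06g071830.2 and its neighbour Solyc06g071820.3 fell by 1.39 and 0.87 on the log2 scale, and each kept its call whichever library was left out. The other that rose, Solyc03g111710.3, was at 195 ± 41.5 TPM in slszp1 and 99.6 ± 25.5 TPM in WT (limma, adjusted p = 0.0199). It was lost without slszp1 replicate 2 or 3 (limma, adjusted p = 0.0681 and 0.0748) and without WT replicate 1 or 3 (limma, adjusted p = 0.0696 and 0.0623). The remaining regulator that fell, Solyc01g106630.2, a part-matched entry named for CBL-interacting protein kinase 23, which in Arabidopsis phosphorylates a nitrate transporter, had 18.16, 10.07 and 30.69 TPM in slszp1 and 3641.52, 191.92 and 1786.93 TPM in WT. Its genotypes did not overlap, but the WT libraries were far apart. The log2 difference of -5.84 (SE 1.11; limma, adjusted p = 0.0166) was larger in size than those of the 3 genes described. That call was lost without slszp1 replicate 1 or 2 (limma, adjusted p = 0.075 and 0.0787) and without WT replicate 1 or 3 (limma, adjusted p = 0.0608 and 0.0987).

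Non-symbiotic haemoglobins remove nitric oxide, a by-product of nitrate reductase. Of 5 tested genes 0 rose and 1 fell (20.0%), beside 8.71% higher and 10.5% lower over all tested genes. Solyc03g071690.3 was at 5.36 ± 0.51 TPM in slszp1 and 27.0 ± 8.46 TPM in WT (log2 difference -2.09, SE 0.25; limma, adjusted p = 0.000838). Solyc07g008240.3 had 224.48, 189.79 and 387.81 TPM in slszp1 and 93.56, 484.82 and 81.18 TPM in WT; WT replicate 2 was the highest of all libraries, and without it the gene passed as higher in slszp1 (limma, adjusted p = 0.0111). The list for PII and N-acetylglutamate sensing had a single tested gene, Solyc11g005620.1, described as acetylglutamate kinase and not as a PII protein. It was not called (log2 difference -0.40).

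**Figure D4:**
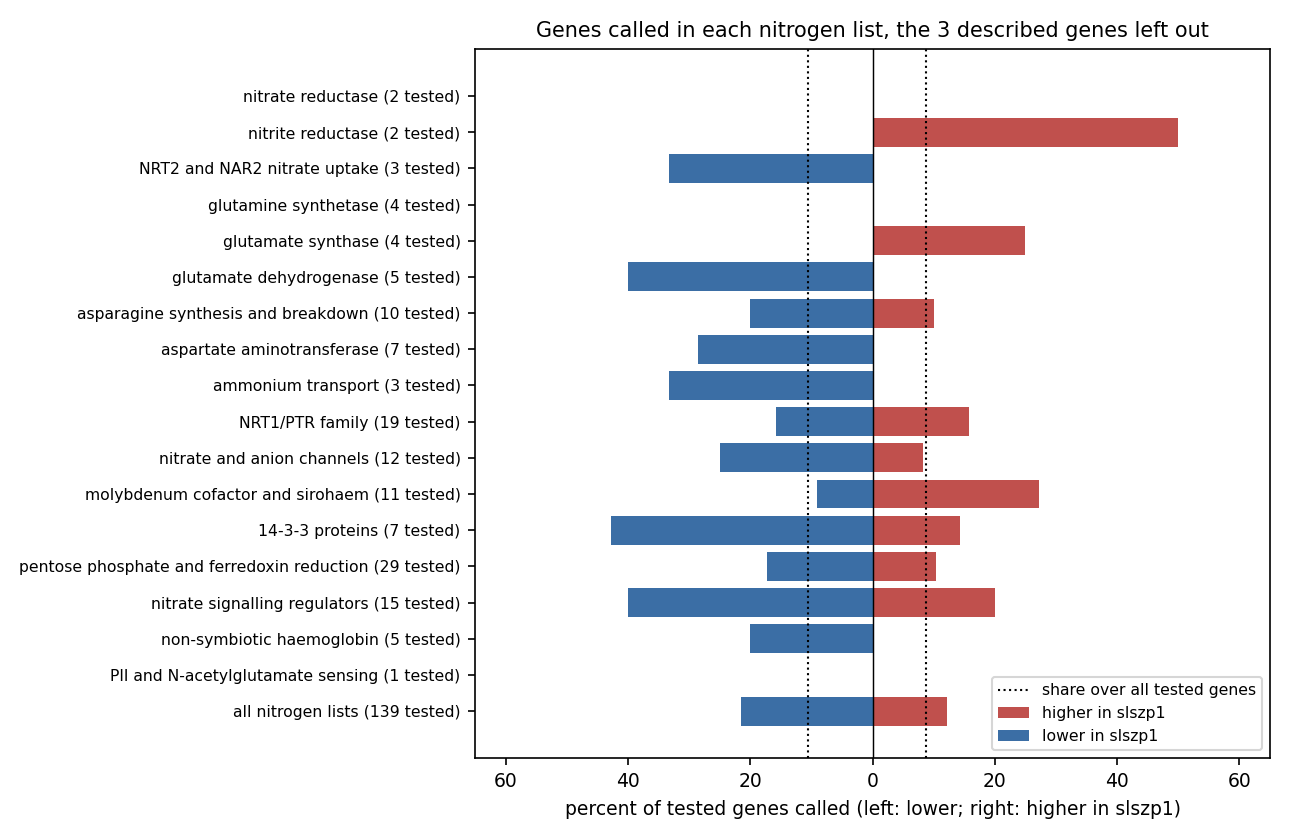
Percent of tested genes that were called lower (left) or higher (right) in slszp1 in each list of nitrogen genes, without the 3 genes described and without names matched by their letters alone; dotted lines mark the shares over all tested genes, 10.5% lower and 8.71% higher. Over all lists, 30 of 139 genes were lower and 17 higher.

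Over all lists, 160 tested genes other than the 3 described gave 18 that rose and 34 that fell, with 108 not called and a median log2 difference of -0.18. This is 11.2% higher and 21.2% lower, beside 8.71% and 10.5% of all tested genes and their median of -0.0005. The lists overlap in function and were drawn up with results of these data known, so the shares describe them only. As the plot of called shares shows, several bars rest on 2 to 5 genes. Without WT replicate 1, 10 rose and 23 fell; without slszp1 replicate 3, 10 rose; without slszp1 replicate 2, 12 rose. Of the 52 calls, 29 held whichever library was left out.

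The genes whose levels followed the 3 most closely over the 6 libraries were of mixed kinds. Likeness was measured by Pearson's r of log2(TPM + 1), which here mostly reflects the gap between the genotypes, since each formed a cluster of its own. Closest to the nitrate transporter were Solyc09g063090.3 (r = 0.9985), described as a putative methyl-coenzyme M reductase subunit, and the senescence-associated family gene Solyc06g061010.3 (r = 0.9983). After them came an L-ascorbate oxidase-like gene (Solyc02g090360.3, r = 0.9983), a glycine decarboxylase P-protein gene (Solyc08g065220.3, r = 0.9981) and a cysteine protease gene (Solyc04g078540.3, r = 0.9977). Those closest to nitrate reductase included a syntaxin-61-like gene (Solyc04g078130.3, r = 0.9988), a phosphate-induced protein gene (Solyc04g074470.1, r = 0.9976) and an aldehyde dehydrogenase gene (Solyc05g005700.3, r = 0.9971). Those closest to glutamine synthetase included the aquaporin genes Solyc08g008050.3 (r = 0.998) and Solyc06g060760.3 (r = 0.9972). The tonoplast aquaporin Solyc06g060760.3 had 22.15, 14.44 and 20.49 TPM in slszp1 and 411.52, 241.71 and 309.88 TPM in WT, with replicate 2 the lowest of each genotype as in glutamine synthetase. None of the nitrogen list genes was among the 5 closest to any of the 3.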

How the data were processed

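RNA sequencing of 3 slszp1 and 3 WT root samples was deposited as 1 table of genes by libraries, read in all its 6 columns of values. The deposited values were taken as TPM because the columns hold 2 decimals and sum to 941000 to 974000; the header names no unit. Per the submitters' processing notes the tools were Cufflinks, HISAT2, StringTie and TopHat2; roles, versions and genome build are not given in the sources used here. Depth cannot be read from TPM, so no counting interval was computed. Gene names are the table's own, since 0 identifiers matched the RefSeq gene table.

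Genes reaching 1 TPM in at least 3 libraries (17702 of 35768) were compared as log2(TPM + 1) with limma 3.58.1 (trend and robust, statmod 1.5.0) in R 4.3.3, without a replicate block, with Benjamini-Hochberg adjustment over all tested genes and an adjusted p under 0.05. The p-values set the difference between genotypes against the spread between samples within a genotype. Since the number of independent mutant lines is not given, whether they cover spread between lines is unknown. The fit was tested on simulated data in which 100 genes were changed by 1 log2 unit and 100 by 2. It found 45.0% of the changes of 1 unit and 91.0% of those of 2 units. Of 142 calls, 6 were false. A gene that was not called can therefore still differ. An exact 0 can be a failed estimate and was given no fold. With 3 libraries per genotype, a gene could pass the filter through the genotype where it was high, which favours a difference. Among the called list genes, this held for Solyc01g080870.3, Solyc02g081570.3, Solyc08g007060.3, Solyc04g080990.2, Solyc04g081690.2, Solyc07g045540.3 and Solyc12g062200.1. Their p-values, and their part in the counts, are a description only.

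The 3 genes and the 17 lists (patterns in gene descriptions) were chosen with earlier results of these data known. Entries matched by their letters alone were marked after their values were seen. The plan was to name the called genes of each list, up to 4 per direction, or the 2 most abundant if none was called. The 5 genes most like each of the 3 were planned too, and the text gives a selection. The limit of 4 was not kept throughout, and the 52 called genes counted below are all those of the lists. Solyc06g010250.3, Solyc03g112100.3, Solyc03g083440.3, Solyc06g007180.3, Solyc11g063500.1, Solyc07g008240.3, Solyc06g074995.1, Solyc01g108630.3 and some further forms of the 3 enzymes were named after their values were seen. Leaving the entries named transporter-like out of the transporter share was also decided then, and both shares are given.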

Additional observations from a re-analysis of the deposited data

How the results depend on the processing

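The 3 described genes kept their direction under every alternative, and the largest move was the transporter's, at -4.41 with a pseudocount of 0.1. They were chosen as lower in slszp1 in these same libraries, so a change of direction was hardly possible. Their values here are a description only. The count of all genes called higher was 994 to 1764 without 1 library and 911 with a change of at least 2-fold, against 1542. The count called lower was 1131 to 2042 without 1 library and 1107 with at least 2-fold, against 1865. In the nitrogen lists, 10 to 17 genes were higher and 23 to 38 lower without 1 library, and 8 were higher and 23 lower with at least 2-fold, against 18 and 34.

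Replicate numbers did not pair the samples: deviations of same-numbered libraries correlated at -0.0481, -0.0738 and 0.108. With the replicate number as a block, 1276 genes were higher and 1499 lower, and 17 and 30 in the lists. A pseudocount of 0.1, no filter, quantile normalization and, added after seeing the data, median centring and leaving out letter-only matches or low-quality models moved no list count by over 1.5 times. Of the 52 called list genes, 23 lost their call without at least 1 library, and 0 of 57 named genes reversed. TPM hides depth, so the precision of levels near 1 TPM, such as the transporter's in slszp1, is unknown.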

Other observations

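Among 139 nitrogen list genes, WT replicate 2 stood at least 2-fold (on TPM + 1) above both other WT libraries in 4 and below both in 3. The genes above were Solyc04g014510.3, Solyc04g050440.3, Solyc06g010250.3 and Solyc07g008240.3, and those below were Solyc01g106630.2, Solyc06g005450.1 and Solyc12g062200.1. The ammonium transporter Solyc04g050440.3 had 3.8, 3.64 and 4.9 TPM in slszp1 and 3.73, 11.48 and 3.47 TPM in WT.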
